A study of Mus musculus with 12 samples.

Results

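The genes described here are 10 transcripts of the stria vascularis, the epithelium of the lateral cochlear wall that makes endolymph: Kcnq1, Kcne1, Kcnj10, Slc12a2, Atp1b2 and Slc26a4, which move ions, and Tyr, Dct, Pmel and Tyrp1, which make melanin or its scaffold. They were taken by symbol from the count table, which holds 28686 symbols, and all 10 were found and had at least 1 count in each of the 12 libraries. The 12 libraries came from cochlear tissue at postnatal day 6 (P6), 6 of them Sox2CreER/+Jag1fl/fl (mutants) and 6 Sox2+/+ littermates (controls), and tamoxifen had been given to all pups, whatever their genotype, at P0 and P1. In mutants the CreER recombinase was expressed from the Sox2 locus, which is active in supporting cells, and removed the floxed Notch ligand gene Jag1 there. Controls carried no CreER allele and were either Jag1+/fl or Jag1fl/fl, so the genotypes also differed at the Sox2 locus itself, and the CreER allele and the loss of Jag1 cannot be told apart. The sample labels give the strain as C57BL/6;129SV, whereas the study's methods describe the CreER line on C57BL/6J and the floxed line on FVB/n, an albino strain whose Tyr gene carries a coding change. The Tyr alleles of the single mice are not in the labels, and counts per gene do not show them.

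In the stria, marginal cells face the endolymph and secrete potassium through a channel made of KCNQ1 and its accessory subunit KCNE1, after loading it from the other side through the Na-K-Cl cotransporter NKCC1 (Slc12a2) and the Na,K-ATPase. Intermediate cells are melanocytes that reached the stria from the neural crest, and their potassium channel Kir4.1 (Kcnj10) generates the endocochlear potential on which hair cell transduction depends. Loss of strial melanocytes, or of Kcnq1, Kcne1, Kcnj10, Slc12a2 or Slc26a4, causes deafness in mice. In bulk tissue fewer cells of a type and less RNA per cell cannot be told apart, and several of these genes are also expressed outside the stria: Kcnj10 in glia and supporting cells, Atp1b2 in glia, and Slc12a2 in fibrocytes.

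The libraries held between 28498549 and 36134983 counts each. Jag1, the deleted gene, was measured at 102 ± 14.7 CPM (counts of the gene per 1000000 counts of its library; SD, n = 6) in controls and 36.4 ± 6.55 in mutants, a log2 fold change of -1.48 ± 0.13 (SE) with an adjusted p of 0.000258, and the genotypes did not overlap. Hair cell and supporting cell markers, which define the labelled tissue, were all detected in every library (10 of 10 and 8 of 8 genes). Peripheral glia and neurons varied far more than the strial genes: 12 Schwann cell markers summed to 407 to 1485 CPM in controls and 1183 to 6494 in mutants, and 12 neuron markers to 141 to 303 and 199 to 1380, with none of these markers at 0 in any library. Mutant 4 stood apart from the other libraries, with Prph, an intermediate filament of peripheral neurons, at 155 CPM against 0.519 to 1.35 in the other 11. Without mutant 4 the estimates of Kcnq1, Kcne1, Dct, Pmel and Tyrp1 moved by more than 1.5 times and that of Tyr changed sign, and their values without it are given beside them.

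None of the 10 strial genes passed the test between genotypes. With the quasi-likelihood F-test of edgeR over 18459 genes, 0 of 10 had an adjusted p under 0.05, where 35 of all genes tested did (0.190%), and 0 of 10 had genotypes that did not overlap (0.997% of all genes). At an unadjusted p under 0.05 the count was 1 of 10, Tyrp1, beside 10.6% of all genes, and DESeq2 also called 0 of 10 where it called 3.37% of the genes it tested. Apart from Tyrp1, the log2 fold changes lay between -0.29 (Pmel) and 0.22 (Slc12a2), beside a median of 0.00 over all genes.

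**Figure D1:**
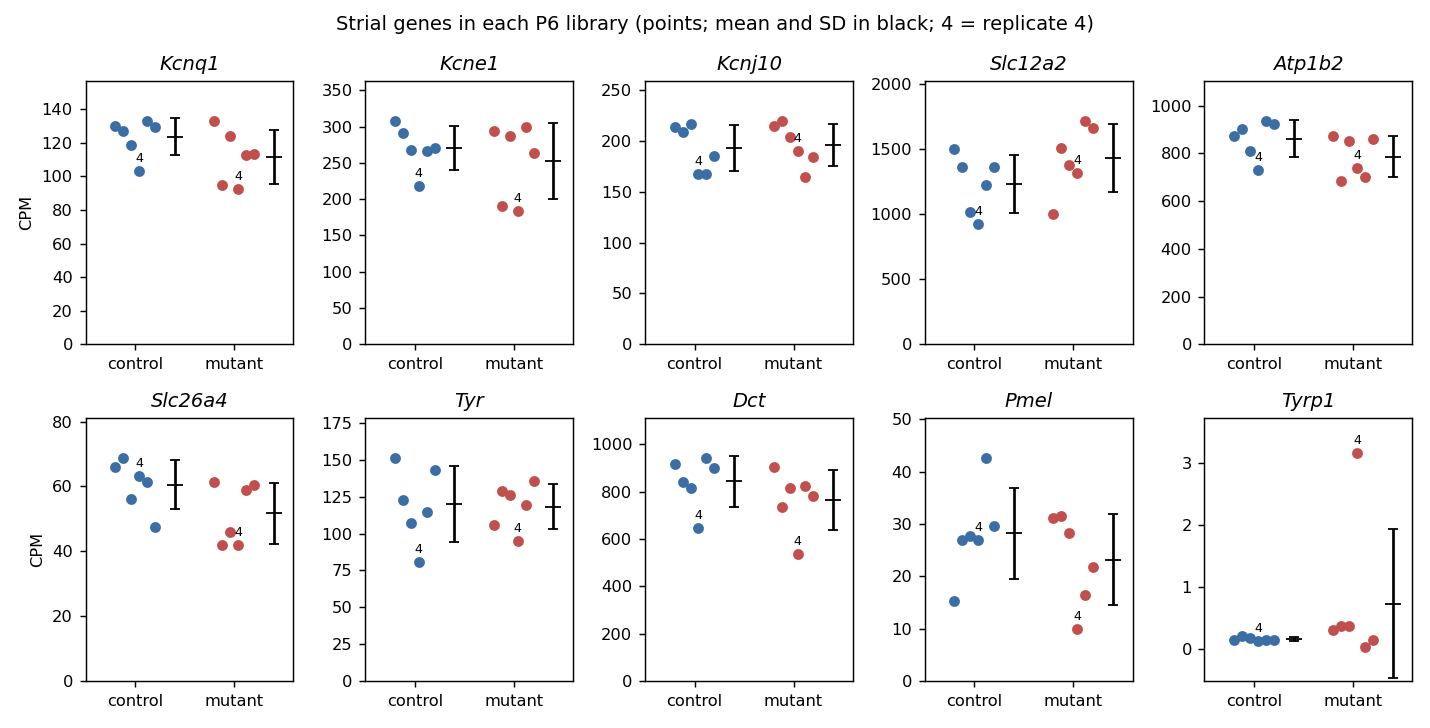
Each panel plots the CPM of 1 strial gene in the 6 control (blue) and 6 mutant (red) libraries on a linear axis, with the mean and SD in black and replicate 4 of each genotype numbered. The genotypes overlap in all 10 panels, and a single mutant library stands at 3.15 CPM for Tyrp1 while the other 11 lie at or under 0.367.

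The potassium channel of marginal cells was measured in every library without a passing difference between genotypes. Kcnq1 (chr7:143106362-143427042, plus strand, GRCm38) encodes the pore and ran from 103 to 133 CPM in controls with a median of 128, and from 92.3 to 133 in mutants with a median of 113. The ranges overlapped, and the log2 fold change was -0.15 ± 0.09 (SE; 95% interval -0.34 to 0.05, adjusted p = 0.679, edgeR), and -0.10 without mutant 4 (adjusted p = 0.879). Exons of Kcnq1 share 121 bases with the antisense transcript Kcnq1ot1, which was itself measured at 24.2 ± 6.69 CPM in controls and 28.02 ± 6.14 in mutants. As the strand setting of the counting is not given in the sources used here, reads from those bases cannot be assigned to either gene.

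Kcne1 (chr16:92345982-92359468, minus strand) encodes the accessory subunit that slows the channel. It ran from 219 to 307 CPM in controls (median 269) and from 184 to 299.7 in mutants (median 275). Of the 12 libraries, 3 stood apart below the rest, control 4, mutant 2 and mutant 4, at 184 to 219 CPM, whereas the other 9 lay at 263 to 307. The log2 fold change was -0.10 ± 0.13 (95% interval -0.37 to 0.18, adjusted p = 0.894, edgeR), and -0.02 without mutant 4 (adjusted p = 0.990). The ratio of Kcne1 to Kcnq1 stayed between 1.99 and 2.66 in all libraries, a span of 1.33-fold, with controls at 2.01 to 2.36 inside the range of the mutants.

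The transporters that load marginal cells with potassium showed small shifts in opposite directions that did not pass the test. Slc12a2 was measured at 924.2 to 1498 CPM in controls (median 1294) and 1003 to 1715 in mutants (median 1442). In 5 of 6 mutants it lay above the control median, with a log2 fold change of 0.22 ± 0.14 (95% interval -0.08 to 0.52, adjusted p = 0.686, edgeR). Atp1b2 (chr11:69599736-69605942, minus strand), a beta subunit of the Na,K-ATPase, ran from 732 to 935 CPM in controls (median 886) and from 686 to 873 in mutants (median 796). All 6 mutants lay below the control median, but both ranges shared most of their span, and the log2 fold change was -0.13 ± 0.09 (95% interval -0.32 to 0.05, adjusted p = 0.678, edgeR).

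Kcnj10 (chr1:172341210-172374085, plus strand), the Kir4.1 channel of intermediate cells, was the closest to equality among the ion transport genes. It ran from 168 to 216 CPM in controls and from 165 to 219 in mutants, and the median was 197 in both genotypes. The log2 fold change was 0.02 ± 0.09, with an interval of -0.17 to 0.21 (adjusted p = 0.975, edgeR). Its within-genotype SD on the log2 scale was 0.16, against a median of 0.20 over all genes tested. Over the genes with a mean of at least 10 CPM the median was 0.147, and the SD of Kcnj10 was larger than that of 59.2% of them. With the Schwann cell and neuron marker levels added to the fit as covariates the estimate was -0.24, and it was again not called (adjusted p = 0.99979). From mouse to mouse its correlation with the Schwann cell markers, after the genotype means were removed, was r = 0.672 (Pearson) and rho = 0.489 (Spearman, n = 12, permutation p = 0.0218 and 0.123). This did not pass adjustment over the 80 relations of members with marker lists (adjusted p = 0.580 and 0.725), and r was 0.755 without the 2 mice farthest from the median. The relation was not particular to Kcnj10. Pearson's r with the Schwann cell markers was 0.694 for Dct, 0.616 for Tyr and 0.543 for Kcnq1, none of which passed. Without the 2 farthest mice these were 0.196, 0.103 and 0.068.

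Slc26a4 (chr12:31519827-31559969, minus strand) encodes pendrin, the chloride-bicarbonate exchanger of spindle, outer sulcus and spiral prominence cells at the border of the stria. It ran from 47.6 to 68.8 CPM in controls (median 62.3) and from 41.8 to 61.3 in mutants (median 52.4). All 6 mutants lay below the control median. The fold change was the lowest of the ion transport genes, at -0.23 ± 0.12 on the log2 scale (95% interval -0.48 to 0.03). The difference did not pass over all genes (unadjusted p = 0.0749, adjusted p = 0.550, edgeR), and the exact permutation test gave p = 0.0952. Over all 10 genes the exact two-sided permutation p lay between 0.0952 (Slc26a4) and 0.994 (Tyr), where the smallest value that 6 mice against 6 allow is 0.00216.

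**Figure D2:**
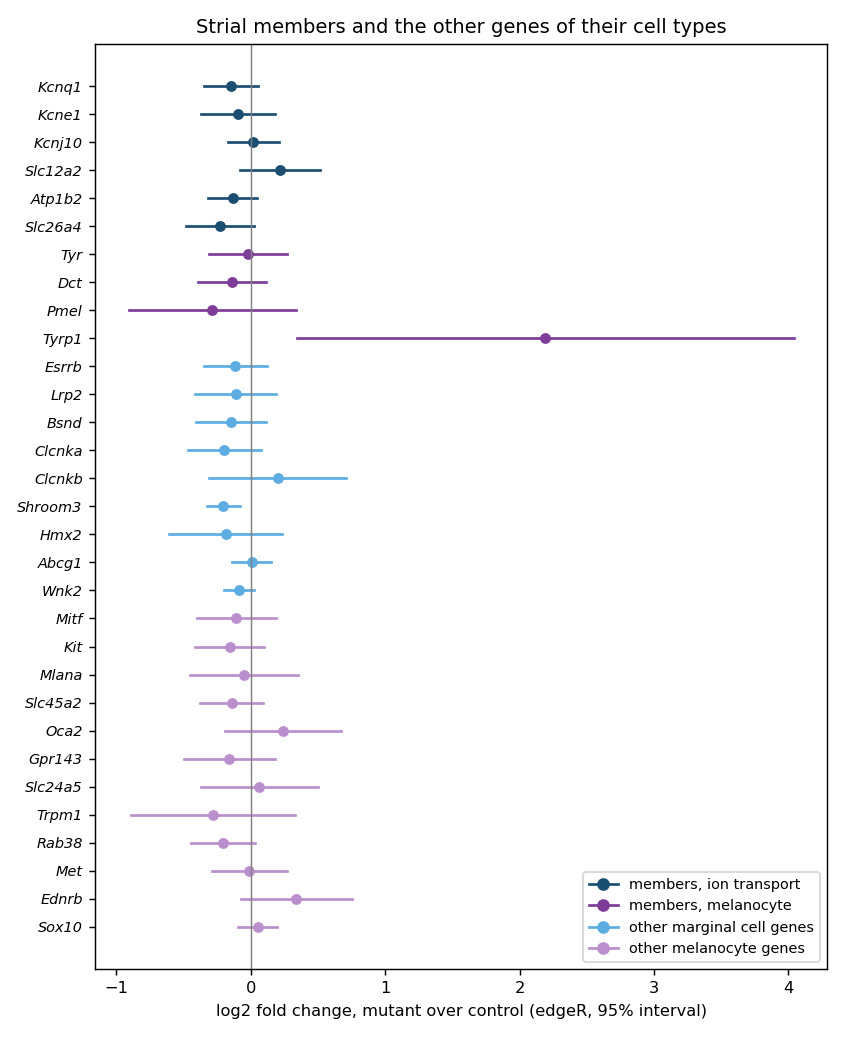
The horizontal axis gives the log2 fold change of mutants over controls with its 95% interval from edgeR for the 10 strial genes and for tested genes of the marginal cell and melanocyte lists. All intervals but those of Tyrp1 and Shroom3 include 0, and none of the genes passed adjustment over all genes.

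A short promoter sequence was found before 3 of the melanocyte genes. MITF, the transcription factor that drives the pigment programme, binds the M-box, an extended E-box. Promoters in RefSeq (GRCm38.p6) were searched over the 250 bases before each start, and 5 of the 9 genes searched had an entry (Kcnj10, Slc26a4, Tyr, Dct and Tyrp1). The M-box was searched as TCATGTGCT on either strand, which contains the E-box CATGTG. It occurred once each before Tyr, Dct and Tyrp1 and not before Kcnj10 or Slc26a4, nor in either of the 2 entries of the further melanocyte gene Trpm1, and 110 of 32817 promoters of the same length held it (0.335%); CATGTG was in 12.3%. The letters TCAAGGTCA, a site of the marginal cell nuclear receptor ESRRB, were in 0.387% of promoters and in none of these 5. Kcnq1 and Kcne1 had no entry, and so rare a site would seldom occur in 5 promoters. The search therefore cannot tell whether the site lies before the marginal cell channel genes. The M-box was searched because it is a site of the pigment programme. Its presence before pigment enzymes is thus a description with no test. The 3 sequences are shown because the 3 pigment enzymes have the M-box in common; capitals mark the M-box, at 22 to 14 bases before the start of Tyr (chr7:87493513-87493762, minus strand), 151 to 143 before Dct (chr14:118052247-118052496, minus strand) and 47 to 39 before Tyrp1 (chr4:80834156-80834185, plus strand, only 30 bases because GENCODE M21 already places an exon there).
Tyr: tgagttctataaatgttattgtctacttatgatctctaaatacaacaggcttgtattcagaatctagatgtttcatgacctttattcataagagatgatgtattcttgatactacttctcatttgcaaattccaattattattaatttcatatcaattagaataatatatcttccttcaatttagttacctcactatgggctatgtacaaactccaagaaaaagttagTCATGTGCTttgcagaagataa
Dct: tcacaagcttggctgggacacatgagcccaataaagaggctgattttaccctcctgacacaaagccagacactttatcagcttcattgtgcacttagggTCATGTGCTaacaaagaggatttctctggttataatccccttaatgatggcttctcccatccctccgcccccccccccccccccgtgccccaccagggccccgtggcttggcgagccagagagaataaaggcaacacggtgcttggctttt
Tyrp1: ggggagggagTCATGTGCTgcctagtagtt

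The levels of the 3 enzymes were far apart, at 143 CPM per kilobase of exon for Dct, 16.9 for Tyr and 0.0552 for Tyrp1 in controls. Dct (chr14:118012790-118052244, minus strand) encodes dopachrome tautomerase, a marker of melanocytes from their earliest stages, and was measured at 646 to 943 CPM in controls (median 871) and 536 to 905 in mutants (median 799). The lowest control was control 4 and the lowest mutant mutant 4. Without them controls ran from 817 to 943 CPM and mutants from 735 to 905, with mutants 2 and 6 below that control range. The log2 fold change was -0.14 ± 0.12 (95% interval -0.39 to 0.11, adjusted p = 0.799, edgeR). It was -0.06 without mutant 4 (adjusted p = 0.955), and -0.31 with the Schwann cell and neuron marker levels as covariates (unadjusted p = 0.0197, adjusted p = 0.99979).

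Tyr (chr7:87424771-87493512, minus strand), the rate-limiting enzyme of melanin synthesis, ran from 80.7 to 151 CPM in controls (median 119) and from 94.7 to 135 in mutants (median 123). The log2 fold change was -0.02 ± 0.13 (95% interval -0.31 to 0.27, adjusted p = 0.988, edgeR). Its sign depended on which mice entered, with estimates from -0.11 to 0.05 when each mouse was left out in turn (0.04 without mutant 4), and it was -0.28 with the Schwann cell and neuron covariates (adjusted p = 0.99979).

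Pmel (chr10:128704195-128720238, plus strand) encodes the amyloid scaffold on which melanin is laid down. It varied more than the enzymes above, from 15.3 to 42.6 CPM in controls (median 27.4) and from 9.99 to 31.5 in mutants (median 24.98). The low libraries were found in both genotypes, control 1 at 15.3 and mutants 4 and 5 at 9.99 and 16.4. The log2 fold change was -0.29 ± 0.29 (95% interval -0.91 to 0.33, adjusted p = 0.843, edgeR), and -0.13 without mutant 4 (adjusted p = 0.956). Its within-genotype SD of 0.57 on the log2 scale was larger than that of 98.7% of the 10616 genes with a mean of at least 10 CPM. Pmel shares 105 exon bases with Dgka and 34 with Cdk2 on the opposite strand, and the part of those reads in its values was not tested.

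Tyrp1 (chr4:80834123-80851719, plus strand) encodes a further melanosomal enzyme and was close to absent. Its counts were 4, 7, 5, 4, 5 and 5 in controls 1 to 6 and 10, 12, 13, 108, 1 and 5 in mutants 1 to 6. The single library with many counts was mutant 4, with a 95% Poisson interval of 88.6 to 130 that covers counting error only, whereas the next highest count, 13, has an interval of 6.92 to 22.2. Tyrp1 stood at 0.125 to 0.208 CPM in controls and at 0.0273 to 0.367 in the mutants other than mutant 4, which reached 3.15. The log2 fold change was 2.19 ± 0.86 (unadjusted p = 0.0238, adjusted p = 0.347, edgeR), and without mutant 4 it was 0.61 with an adjusted p of 0.815. The exact permutation test gave p = 0.245.

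Per kilobase of exon, on which levels of different genes can be compared, the order was Atp1b2, Dct, Slc12a2, Kcne1, Kcnj10, Kcnq1, Slc26a4, Tyr, Pmel and Tyrp1, with medians over the 12 libraries of 209.6, 139, 125, 83.7, 36.4, 29.7, 19.2, 17.1, 11.9 and 0.0566 CPM per kilobase. Atp1b2 was above Dct, Slc12a2 above Kcne1, Kcne1 above Kcnj10, Kcnq1 above Slc26a4 and Pmel above Tyrp1 in 12 of 12 libraries. Dct lay above Slc12a2 in 8 of 12, Slc26a4 above Tyr in 8 of 12, Tyr above Pmel in 10 of 12 and Kcnj10 above Kcnq1 in 11 of 12, so the order of these neighbours was not beyond their spread. Exon lengths were those of GENCODE M21, as the annotation behind the counts is not given in the sources used here. Within the melanocyte group the CPM ratio of Dct to Tyr ran from 5.66 to 8.53 over the libraries, a span of 1.51-fold, and that of Dct to Pmel from 22.1 to 60.0, a span of 2.71-fold.

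From library to library the strial genes varied less than the nerve and glial markers. The summed CPM of the 6 ion transport genes varied 1.42-fold over the 12 libraries (2209 to 3147) and that of the 4 melanocyte genes 1.71-fold (643 to 1100), whereas the Schwann cell markers varied 16.0-fold and the neuron markers 9.81-fold. For single members the ratio of the highest to the lowest library was 1.33 for Kcnj10, 1.36 for Atp1b2, 1.44 for Kcnq1, 1.65 for Slc26a4, 1.67 for Kcne1, 1.76 for Dct, 1.86 for Slc12a2 and 1.88 for Tyr, where the median over all genes tested was 1.62. Pmel (4.27) and Tyrp1 (115) varied more. Genes of low counts enter that median, so the within-genotype SD was also ranked among the genes with a mean of at least 10 CPM. It was larger than that of 90.7% of them for Slc12a2, 89.5% for Tyr, 87.9% for Kcne1, 84.2% for Dct and 83.8% for Slc26a4. The share was 65.9% for Kcnq1, 59.2% for Kcnj10 and 50.1% for Atp1b2.

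The libraries with low values differed between the gene groups. Relative to the median of the 12 libraries, the median of the 10 members was lowest in mutant 4 (0.770) and control 4 (0.831), where 9 of 10 members were below their own median, and lay between 0.957 and 1.09 in the other 10. For the 6 ion transport genes alone it was lowest in mutant 2 (0.790), then mutant 4 (0.812) and control 4 (0.850), and for the 4 melanocyte genes in mutant 4 (0.717), control 4 (0.783) and mutant 5 (0.792). Mutant 4 held the lowest value for Kcnq1, Kcne1, Slc26a4, Dct and Pmel, and control 4 for Slc12a2 and Tyr. The 2 libraries were unlike in nerve content, since the Schwann cell sum was lowest of all in control 4 and the neuron sum highest of all in mutant 4.

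**Figure D3:**
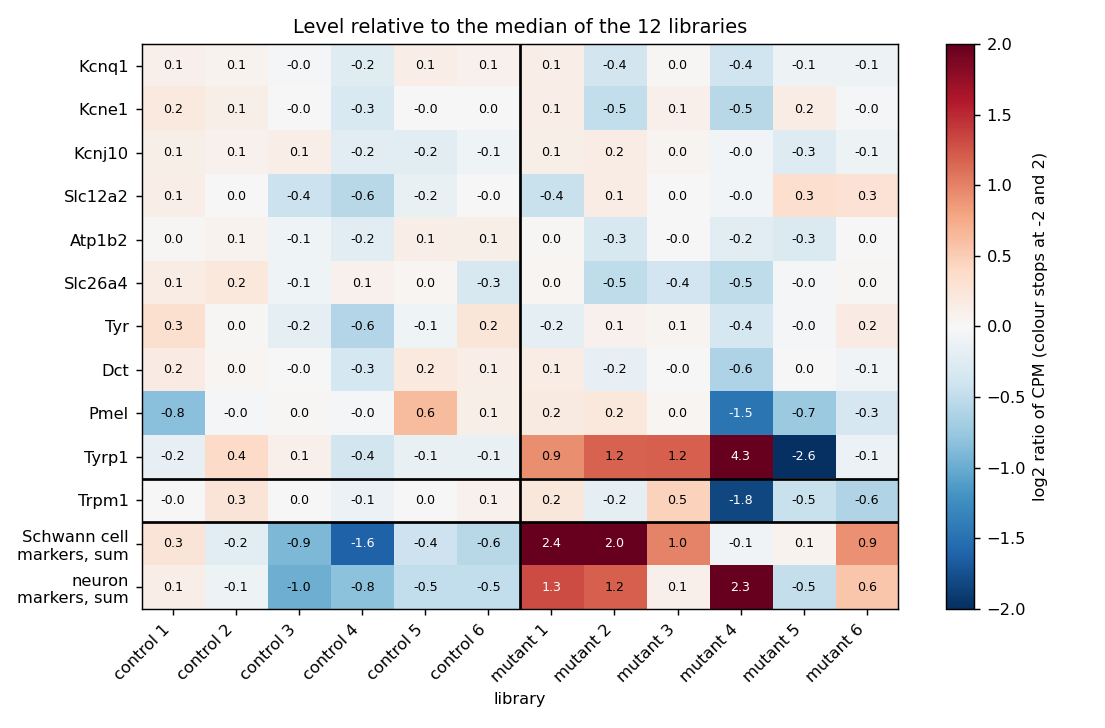
Cells give the log2 ratio of each gene's CPM to its median over the 12 libraries, for the 10 strial genes, for Trpm1 and for the sums of the Schwann cell and neuron markers, with controls on the left and mutants on the right. The strial rows are paler than the marker sums except for Pmel and Tyrp1, while the marker sums range from deep blue to deep red.

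To ask whether strial genes rose and fell together from mouse to mouse apart from genotype, the 45 pairs of members were correlated after the genotype means were removed (log2 CPM, n = 12, p from 100000 permutations within genotype, adjusted over the 45 pairs). For 5 of 45 pairs Pearson's r passed, all of them positive, and for 1 pair Spearman's rho passed. That pair was Kcnq1 and Dct, a marginal cell channel and a melanocyte enzyme, with r = 0.887 (p = 1e-05, the smallest the permutations can give, adjusted p = 0.00045), rho = 0.888 (p = 0.00082, adjusted p = 0.0369) and r = 0.856 without the 2 mice farthest from the median of Kcnq1. The ratio of Dct to Kcnq1 accordingly stayed between 5.80 and 7.77. Among the 9 mice left without the 3 libraries of low Kcne1, a choice made after the values were seen, r was 0.836 (permutation p = 0.00267, adjusted p = 0.120).

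The other 4 pairs passed by Pearson's r alone. For Kcnq1 and Atp1b2 r was 0.824 (permutation p = 0.00303, adjusted p = 0.0302), rho 0.797 (p = 0.00493, adjusted p = 0.0896) and r without the 2 farthest mice 0.794; among the 9 mice r was 0.672 (permutation p = 0.102). For Slc12a2 and Tyr r was 0.783 (permutation p = 0.00336, adjusted p = 0.0302), rho 0.783 (p = 0.00597, adjusted p = 0.0896) and r without the 2 farthest mice 0.726; among the 9 mice r was 0.764 (permutation p = 0.0126). For Kcnq1 and Kcne1 r was 0.895 (permutation p = 0.00304, adjusted p = 0.0302), rho 0.664 (p = 0.0434, adjusted p = 0.351) and r without the 2 farthest mice 0.799. For Kcne1 and Dct r was 0.820 (permutation p = 0.00147, adjusted p = 0.0302), rho 0.727 (p = 0.0131, adjusted p = 0.147) and r without the 2 farthest mice 0.824. Kcne1 falls into clusters of 3 and 9 libraries, and within the 9 its r was 0.280 with Kcnq1 (permutation p = 0.502) and 0.311 with Dct (permutation p = 0.450). Leaving out the 3 libraries also narrows the range of Kcne1, which lowers r by itself. Tyr and Dct, both melanocyte enzymes, gave r = 0.664 (permutation p = 0.0199, adjusted p = 0.149) and rho = 0.287 (p = 0.381, adjusted p = 0.745), with r = -0.12 without the 2 farthest mice. No relation of a member with a marker list passed (0 of 80), and the highest, Tyrp1 with neuron markers (r = 0.787, rho = 0.496, permutation p = 0.0158 and 0.130, adjusted p = 0.580 and 0.725), was 0.196 without the 2 farthest mice.

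**Figure D4:**
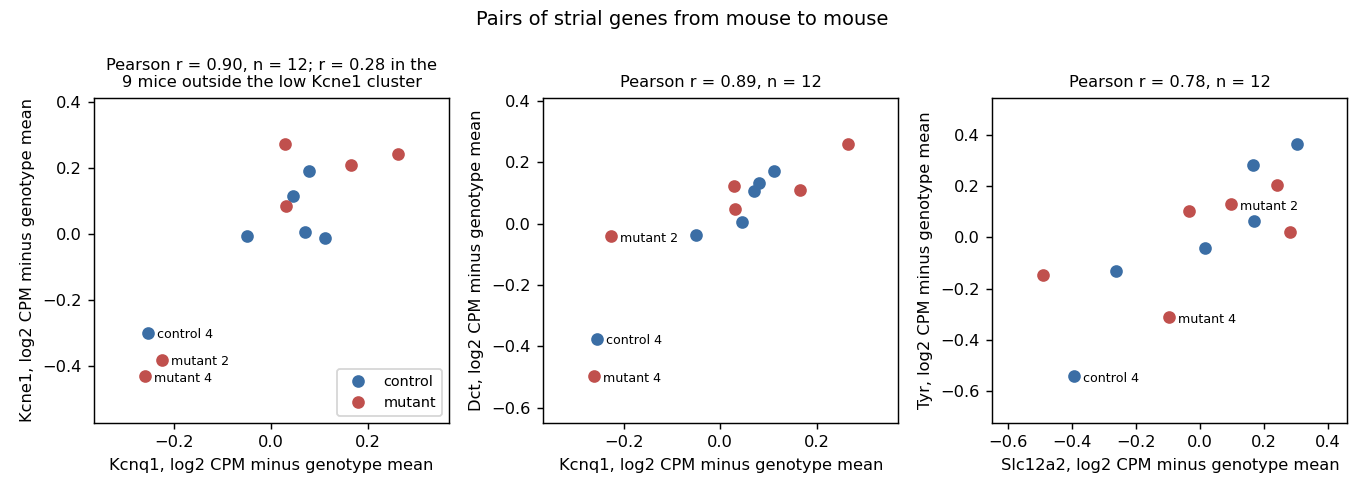
Each point is 1 mouse, control in blue and mutant in red, and both axes give log2 CPM minus the genotype mean. Control 4, mutant 2 and mutant 4 form a separate low cluster for Kcne1 (left), while Kcnq1 with Dct (middle) and Slc12a2 with Tyr (right) follow a line through most of the mice.

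The genes whose pattern over the 12 mice was most like that of a member were sought among 14813 tested genes with a mean of at least 1 CPM, by Pearson's r on genotype-centred log2 values, as a description. All points share the library they come from, so a likeness also carries what varied between dissections. Nearest to Kcnq1 were Bsnd (r = 0.951), which encodes barttin, the accessory subunit of the marginal cell chloride channels, Ptgds (r = 0.926), a prostaglandin synthase, and Kcnn4 (r = 0.918), a calcium-activated potassium channel. Esrrb, the nuclear receptor of marginal cells, was at rank 15 (r = 0.849). Nearest to Dct were Tspan10 (r = 0.956), Tmod4 (r = 0.891) and Slc45a2 (r = 0.887), a melanosomal transporter, with Bsnd at rank 5 (r = 0.875) and the melanosomal protein gene Mlana at rank 7 (r = 0.866). Other genes of the melanocyte list were far from Dct, among them Sox10 at rank 2037 (r = 0.303), Gpr143 at rank 3371 (r = 0.199), Met at rank 3451 (r = 0.192) and Kit at rank 14035 (r = -0.53).

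The search was also made for Tyr, Slc26a4 and Kcnj10. Nearest to Tyr were Naip6 (r = 0.947), Enpep (r = 0.921) and Mtmr10 (r = 0.903), none of them a gene of the pigment lists. Nearest to Slc26a4 were Ssb (r = 0.933), Mrfap1 (r = 0.914) and Pla2g7 (r = 0.906), and nearest to Kcnj10 were Dock10 (r = 0.910), Mgat3 (r = 0.878) and Elovl6 (r = 0.867). Kcnj10 and Slc26a4 did not follow each other (r = -0.15, rho = -0.15, permutation p = 0.655 and 0.644, adjusted p = 0.893 and 0.929; r = 0.044 without the 2 farthest mice).

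Further genes of the same cell types did not pass the adjusted test either. Of 10 further marginal cell genes, 0 passed the adjusted test and 1 had an unadjusted p under 0.05 (beside 4.04% of all genes in that direction), Shroom3, an organiser of the apical actin network, at 55.3 ± 2.89 CPM in controls and 48.1 ± 3.12 in mutants (log2 fold change -0.20 ± 0.06, adjusted p = 0.141, edgeR). The median log2 fold change of the list was -0.11, beside 0.00 over all genes, with 8 of 10 genes negative. The endocytic receptor gene Lrp2 was at 540 ± 101 CPM in controls and 501 ± 78.3 in mutants, and Esrrb at 223 ± 27.6 and 206 ± 31.9.

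Of 13 further melanocyte genes, 12 were tested (Mc1r had too few counts) and 0 had even an unadjusted p under 0.05, with a median log2 fold change of -0.08. Sox10, which melanocytes share with Schwann cells, was at 177 ± 10.6 CPM in controls and 184 ± 16.8 in mutants, Met, a growth factor receptor, at 159 ± 28.3 and 158 ± 26.4, and Ednrb, an endothelin receptor that glia also express, at 129.6 ± 34.9 and 164 ± 39.3. Mitf itself was at 55.9 ± 12.5 and 51.9 ± 6.69 CPM.

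The strial basal cell genes (0 of 3 at an unadjusted p under 0.05, median -0.05) included Cldn11, the tight junction gene that seals the stria, at 439 ± 64.7 CPM in controls and 415 ± 68.7 in mutants.

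No gene listed for the tissues that border the stria passed the adjusted test, and their log2 fold changes ran from near 0 to -0.50. Among 7 spiral ligament and otic mesenchyme genes all 7 fold changes were negative (median -0.11, beside 0.00 over all genes). That of Tbx18 was only -0.02, and the share of negative fold changes over all genes was not counted. Of the 7 genes, 2 had an unadjusted p under 0.05, beside 4.04% of all genes that did so in that direction. These were Car3, a carbonic anhydrase, at 5346 ± 576 CPM in controls and 4248 ± 463 in mutants (log2 fold change -0.33 ± 0.09, adjusted p = 0.122, edgeR), and the water channel gene Aqp1 (-0.23 ± 0.10, adjusted p = 0.426). Among 5 outer sulcus, spindle cell and Reissner membrane genes all 5 were negative (median -0.20) and 2 had an unadjusted p under 0.05: Dpp10, at 28.6 ± 2.97 and 20.2 ± 3.79 CPM (-0.50 ± 0.11, adjusted p = 0.0834), and Vmo1, at 143 ± 14.9 and 123 ± 9.24 CPM (-0.22 ± 0.07, adjusted p = 0.238). Slc26a4 is expressed in some of these cells. Epyc, also of the outer sulcus list, was near 0 (-0.01 ± 0.09).

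The marker lists of other cell types moved as follows, with 0 genes passing the adjusted test in any list. At an unadjusted p under 0.05, 12 of 12 Schwann cell markers (median log2 fold change 1.74) and 10 of 12 neuron markers (median 2.63) were higher in mutants, beside 6.52% of all genes. In the lower direction, where 4.04% of all genes passed the same threshold, it was passed by 3 of 8 macrophage markers (median -0.20) and 3 of 8 supporting cell markers (Sox2, S100a1 and Hes5, median -0.18). It was also passed there by 1 of 5 erythrocyte markers (median -0.74) and 1 of 5 endothelial markers (median -0.07). In the higher direction 1 of 10 hair cell markers passed (Pvalb, median 0.04). For bone and cartilage it was 0 of 5 (median -0.16). With the Schwann cell and neuron marker levels as covariates 0 of 10 strial genes were called. The estimates of the 9 members other than Tyrp1 lay between -0.50 (Pmel) and 0.16 (Slc12a2), while that of Tyrp1 was 0.06 in place of 2.19. Besides Dct (-0.31), Atp1b2 was at -0.29 (unadjusted p = 0.0493, edgeR) and Kcnq1 at -0.27 (unadjusted p = 0.0529, edgeR) in that fit. As most of these markers were higher in mutants, the fit cannot cleanly separate them from genotype.

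The pigment genes were at their most uneven in mutant 4. Dct was 65.1% of the median of the other 11 libraries there, Tyr 76.9% and Pmel 36.01%, while Tyrp1 was at its highest. Trpm1, a channel of melanocytes, was at 11.3 CPM against 26.1 to 54.3 in the other 11, or 28.4% of their median, and Mlana was at 58.0% and Mitf at 85.2%. Not all genes of the melanocyte list were low in mutant 4. Kit at 50.2 CPM, Sox10 at 173 and Met at 140 lay inside the range of the other 11. Of 14822 genes with a mean of at least 1 CPM, ranked by mutant 4 relative to the lowest of the other 11 libraries, Trpm1 was at rank 2 and Pmel at rank 9. Tspan10 (rank 15) and Tfec (rank 17), a tetraspanin gene and a relative of Mitf that are both expressed in pigment cells, were named after their values were seen. The same library held the neuron marker Prph at 155 CPM, and the part of neuronal transcripts in the pigment values was not tested.

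**Figure D5:**
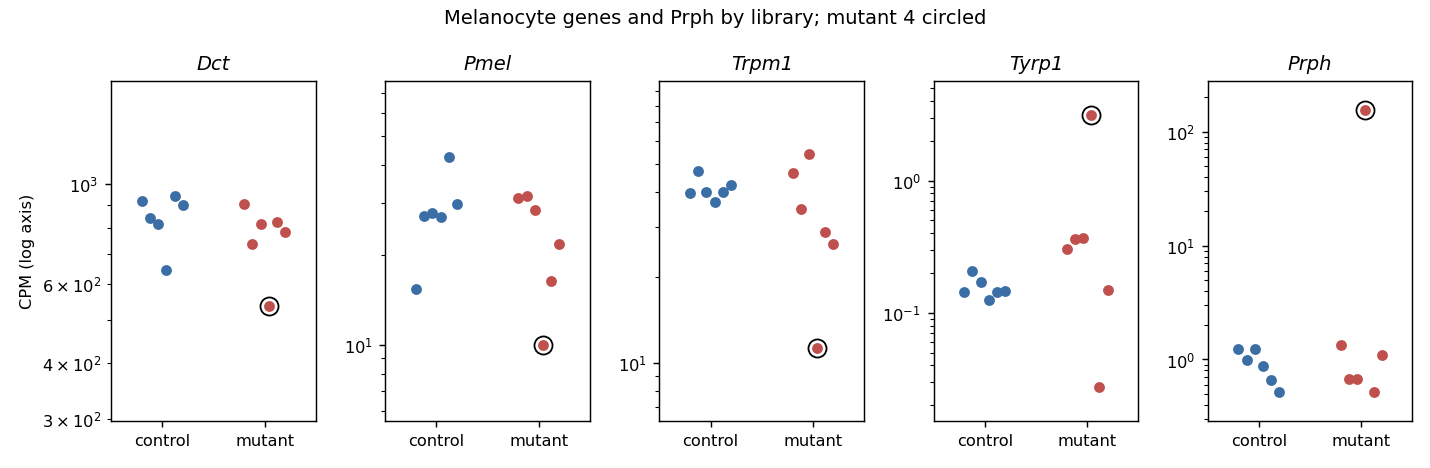
CPM on a log axis for Dct, Pmel, Trpm1, Tyrp1 and the neuronal gene Prph in the 6 control (blue) and 6 mutant (red) libraries, with mutant 4 circled. Mutant 4 is the lowest library for Dct (536 CPM), Pmel (9.99) and Trpm1 (11.3) and the highest for Tyrp1 (3.15) and Prph (155).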

How the data were processed

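RNA was sequenced by the authors as single-end reads of 100 nucleotides from the cochlear tissue of 12 mice. The deposited values are whole-number counts of reads for each gene symbol and each library, without normalization or pooling. The submitters' processing notes name Trimmomatic 0.32, STAR 2.4.2a, HTSeq 0.9.1, DESeq2 1.10.1 and GRCm38.p4; the annotation and the strand setting are not given in the sources used here. A deposited table of the authors' own comparison (means, fold changes, p-values) was not used.

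Libraries were grouped by their labels. The 18459 genes averaging 5 counts or more were compared in edgeR 4.0.16 (R 4.3.3; quasi-likelihood F-test, TMM factors, robust, no covariates), and a gene was called when its Benjamini-Hochberg adjusted p, over all genes, was under 0.05. DESeq2 1.42.0, limma-voom (limma 3.58.1), other normalizations and filters, covariates and leaving out each mouse were alternatives. CPM used TMM factors. Exact permutation tests took all divisions of the mice into 6 and 6 on log2(CPM + 0.1), and correlations used the same scale. The tests were checked on simulated data. Total counts of 28498549 to 36134983 fix genes of 100 CPM to within a few percent of counting error, so the spread between mice set the errors. Same-genotype libraries differed by more than counting error, so none was counted as a duplicate.

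The members and lists were chosen with earlier results of these data known. Named genes were all 10 members, Jag1, each list's genes with an unadjusted p under 0.05 or otherwise its 3 most abundant, and the 3 nearest genes of 5 members; marker lists of other cell types are given by counts. Some genes and 1 list that this rule would name are not reported here. Sequences are from RefSeq and positions and exon lengths from GENCODE M21.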

Additional observations from a re-analysis of the deposited data

Results flagged for a closer look

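Tyrp1 in mutant 4 was set apart because its gap to the next mutant library was larger than Dixon's critical value for 6 samples allows. It stood at 3.15 CPM, the next mutant at 0.367 and the lowest at 0.0273. It was the 1 sample picked out in 20 groups (10 genes in each genotype), and chance alone picks out about 5% of groups. The same library held the highest neuron marker sum and the lowest Dct, Pmel and Trpm1.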

How the results depend on the processing

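Fold changes of 8 members kept their direction in every setting tried, 22 for each gene and 20 for Tyrp1, which a mean count of 20 and filterByExpr removed, and no member was called in any of them. Kcnj10 and Tyr, both near 0, changed sign. With Schwann cell and neuron markers as covariates Kcnj10 was at -0.24, Tyr at -0.28 and Tyrp1 at 0.06; over the mice left out in turn Kcnj10 ran from -0.0163 to 0.0668 and Tyr from -0.111 to 0.0518. Leaving out control 4 or 5 (-0.02) or mutant 1 or 2 (-0.01) turned Kcnj10, and leaving out control 1 (0.05), control 6 or mutant 4 (0.04) or mutant 1 (0.01) turned Tyr. Tyrp1 ran from 0.61 (without mutant 4) to 2.45 over the mice left out.

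The count of genes called over the whole table was less stable. Against 35 in the main test, DESeq2 called 619 (473 higher and 146 lower, beside 20 and 15), limma-voom 19, no filter on low counts 57, Schwann cell and neuron covariates 1, and the ion transport members as a covariate 13; leaving out each mouse gave 14 to 356, with 356 without mutant 5 and 66 without mutant 4. The causes were not tested. In the other settings of the count test it lay between 29 and 39. Replicate numbers did not pair the mice, since correlations of deviations for the same number ran from -0.19 to 0.27 and only mutants 3 and 6 were most like the control of their own number; with the replicate block 131 genes were called, none of them a member. Of the 5 correlated pairs 0 passed adjustment in the 9 mice outside the low Kcne1 cluster, an alternative chosen after seeing the data that leaves fewer mice, and 5 passed without centring. Depth limits only Tyrp1, at 1 to 13 counts in 11 libraries.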

Other observations

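Outside the pairs that were tested, the gene that moved most against Tyr was looked up. Among the 14813 genes searched, Otos, which encodes otospiralin of spiral ligament fibrocytes, had the lowest correlation of all with Tyr over the 12 mice after the genotype means were removed (r = -0.93), and r stayed between -0.97 and -0.88 when each mouse was left out in turn. Coch, a further ligament gene, was at rank 14773 (r = -0.84). The other genes of the ligament and mesenchyme list did not all go that way. Tbx18 (r = 0.547) and Pou3f4 (r = 0.262) were positive with Tyr, and Otor (r = -0.49), Aqp1 (r = -0.38) and Car3 (r = -0.38) were negative. Otos ran from 444 to 1114 CPM in controls and from 486 to 904 in mutants, a wider spread than that of Tyr. Dct was less opposed to both (r = -0.51 with Otos and -0.63 with Coch). These genes were picked after their values were seen, so the values are given as a description with no test.

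Kit, the receptor that melanocytes need to survive, had a negative correlation with Dct from mouse to mouse (r = -0.53, 12 mice) and almost none with Tyr (r = 0.012). Its means were 45.1 ± 4.28 CPM in controls and 40.5 ± 8.04 in mutants. Ednrb was among the genes most like Tyr (rank 52, r = 0.762) and Slc45a2 more so (rank 38, r = 0.779). Met (rank 130, r = 0.709), Slc24a5 (rank 199, r = 0.680) and Mitf (rank 205, r = 0.677) followed. Other genes of the melanocyte list were far from Tyr. Rab38 was at rank 2200 (r = 0.427), Trpm1 at 3285 (r = 0.338), Mlana at 3434 (r = 0.326), Sox10 at 8955 (r = -0.15) and Gpr143 at 12426 (r = -0.44). These values are descriptions over genes that share the same 12 libraries.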
